A study of Mus musculus with 9 samples.

Results

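Mitochondrially encoded transcripts were defined by symbol, as the names in the count table that start with mt-. Of 48679 names, 37 met this rule, and these were the 13 protein-coding, 2 ribosomal RNA (rRNA) and 22 transfer RNA (tRNA) genes of the mitochondrial genome. Their counts were compared between 3 groups of mouse retinas in RNAseq data. All mice were C57BL/6J and 12 weeks old, and each sample was a pool of 6 retinas from 6 mice. In the RVO group (retinal vein occlusion, n = 3 pools), all large veins of an eye had been closed with a laser 2 days before. In the control group (n = 3), the fellow eyes of the laser-treated mice had received the same laser scheme between the large vessels. Eosin Y, a photosensitizer, had been injected at 200 mg/kg before laser treatment, so both eyes of these mice had been exposed to it. The untreated group (n = 3) came from mice without laser treatment. The unit of replication was the pool, so p-values measure the spread between pools and not between mice. Total counts were between 18897218 and 28993921 in the laser-treated samples and between 12377572 and 15245869 in the untreated samples.

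The mitochondrial genome is a small circle that is transcribed from both strands into long precursors. The tRNAs lie between most of the other genes and are cut out of the precursors, which releases the messenger and ribosomal RNAs, and most of these then receive short poly(A) tails. The proteins it encodes are core subunits of complexes I, III and IV of the respiratory chain and of ATP synthase, while all other subunits of these complexes come from nuclear genes. In the retina, photoreceptors pack many mitochondria into their inner segments, next to the light-sensing outer segments.

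Not all 37 genes could be measured. Counts were 0 in every sample for 8 of them, the protein-coding genes mt-Co2, mt-Co3 and mt-Nd4l and the tRNA genes mt-Ty, mt-Ts1, mt-Td, mt-Tk and mt-Th. For the 5 tRNA genes, whose sequence no other annotated gene shares, a count of 0 allowed a level of up to 0.104 to 0.242 CPM (counts scaled to a common library total), depending on the sample. This limit holds only if none of their reads also matched sequence outside annotated genes. The 3 protein-coding genes had at most 3 windows of their own, so their 0 sets no upper limit. mt-Atp6 had at most 1 count and mt-Atp8 between 0 and 6. Copies of parts of the mitochondrial genome lie in the nuclear genome, and a read that matches both places equally well may not be counted for either gene. The share of 50-base windows, the length of a read, that occurred exactly in another annotated gene was 100% for mt-Co2, 99.9% for mt-Co3, 99.5% for mt-Atp6, 98.8% for mt-Nd4l, 98.0% for mt-Nd3, 62.2% for mt-Nd4 and 51.1% for mt-Co1. It was 8.2% for mt-Nd2, 7.6% for mt-Nd5, 1.0% for mt-Rnr2 and 0 for mt-Nd1, mt-Nd6, mt-Cytb, mt-Rnr1 and mt-Atp8, so that the low counts of mt-Atp8 and the 0 of the 5 tRNA genes were not accompanied by sequence shared with an annotated gene. Sequence outside annotated genes was not compared. The genes mt-Ts1, mt-Td, mt-Tk and mt-Atp8 lie between mt-Co1 and mt-Atp6, whose copies Gm29216 and Gm10925 lie close together on chromosome 1. Whether the sequence between these copies matches the genes was not tested, so the CPM limit is uncertain for these tRNA genes. The stretch of the mitochondrial genome between the matching part of mt-Co1 and that of mt-Nd4 (chrM:6394-11042, GRCm38) held 11 complete mt- genes. Of these, 8 had 6 or fewer counts in every sample and the highest count of the others was 65. The first 60 bases of mt-Co3 (chrM:8607-8666, plus strand, GENCODE vM21 on GRCm38) are shown because this gene of complex IV had no count although its sequence is intact:

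mt-Co3: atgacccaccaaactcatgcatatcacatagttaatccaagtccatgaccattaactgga

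The pseudogene Gm28437 on chromosome 1 begins with the same letters (chr1:24613912-24613971, minus strand), and all 783 of its 783 bases were identical to mt-Co3. Gm28437 had between 0 and 3 counts. The neighbouring pseudogenes that share sequence with mt-Co2 (Gm28661), mt-Atp6 (Gm10925), mt-Nd3 (Gm28438), mt-Nd4l (Gm10222), mt-Nd4 (Gm28439) and mt-Co1 (Gm29216) had between 0 and 7 counts. On chromosome 2, Gm13340 shares sequence with mt-Co1 and had between 56 and 106 counts. Levels of mt-Co1 and mt-Nd4 therefore rest on the part of each gene with its own sequence. The plot of counts in genome order shows the low counts beside the shared sequence. It also shows those of mt-Atp8 and of tRNA genes without sequence shared with an annotated gene.

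**Figure D1:**
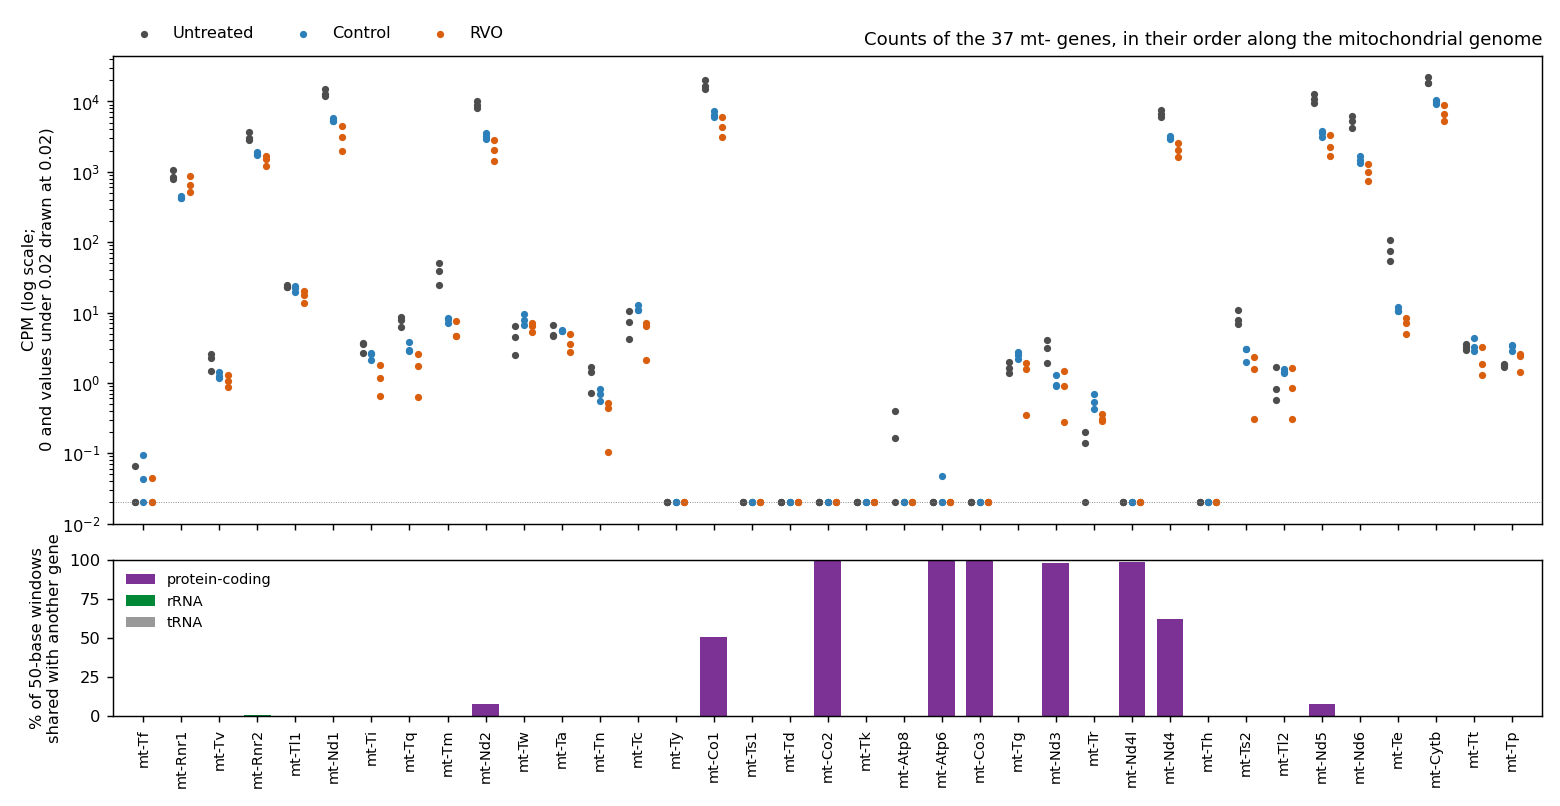
CPM (log scale) of the 37 mt- genes in their order along the mitochondrial genome, 1 point per sample, above the percentage of each gene's 50-base windows that occur exactly in another annotated gene. Protein-coding genes with 98.0% or more shared windows lie at 4.12 CPM or less, mt-Atp8 and 5 tRNA genes at 0 in all samples do so without shared windows, and 7 protein-coding genes and both rRNA genes were at 422 CPM or more in every sample, with untreated samples highest for each of the 7.

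Among the tRNA genes, 15 passed the filter on low counts in all 3 comparisons. The 6 tRNA genes at the ends of the range of change between laser-treated and untreated samples are shown here with the anticodon, the triplet that reads the codon, in capitals. All are on GRCm38 in GENCODE vM21. mt-Te carries glutamate (chrM:14071-14139, minus strand), mt-Tm methionine (chrM:3845-3913, plus), mt-Ts2 serine (chrM:11613-11671, plus), mt-Tq glutamine (chrM:3772-3842, minus), mt-Tw tryptophan (chrM:4950-5016, plus) and mt-Tp proline (chrM:15356-15422, minus). The first 4 fell in both laser-treated groups, and the last 2 passed the test for a fall in neither:

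mt-Te: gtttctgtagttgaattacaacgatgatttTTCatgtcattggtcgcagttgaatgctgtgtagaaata
mt-Tm: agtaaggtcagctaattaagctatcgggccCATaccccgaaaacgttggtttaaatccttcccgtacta
mt-Ts2: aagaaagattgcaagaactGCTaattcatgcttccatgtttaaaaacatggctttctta
mt-Tq: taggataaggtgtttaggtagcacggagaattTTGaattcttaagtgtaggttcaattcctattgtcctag
mt-Tw: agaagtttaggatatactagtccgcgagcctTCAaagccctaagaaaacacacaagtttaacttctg
mt-Tp: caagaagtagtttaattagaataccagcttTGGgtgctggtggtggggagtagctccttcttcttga

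Laser treatment was accompanied by a smaller share of mitochondrially encoded transcripts, also in control eyes whose veins had been spared. Untreated samples came from other mice. In comparisons with them, the laser, the eosin Y and anesthesia given with it, and the set of animals cannot be told apart. In untreated samples, 9.92%, 8.34% and 7.73% of all counts came from mt- genes. In control samples, the shares were 3.49%, 3.87% and 3.32%. In RVO samples, they were 1.77%, 3.17% and 2.42%. All 3 groups were separate, with untreated samples highest and RVO samples lowest, and RVO 2 lay nearest to the control samples. The means were 8.66% ± 1.13 (SD, n = 3) in untreated, 3.56% ± 0.280 (SD, n = 3) in control and 2.46% ± 0.705 (SD, n = 3) in RVO samples, so the share in untreated samples was 2.44 times that in controls and 3.53 times that in RVO samples. For each pair of groups, the exact two-sided permutation test gave p = 0.1, the smallest value that 3 against 3 samples allow. The protein-coding genes made up most of this difference, with 8.24% ± 1.07 of all counts in untreated, 3.32% ± 0.268 in control and 2.24% ± 0.696 in RVO samples (SD, n = 3 each). In these bulk samples, fewer cells of a type and less RNA per cell cannot be told apart.

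**Figure D2:**
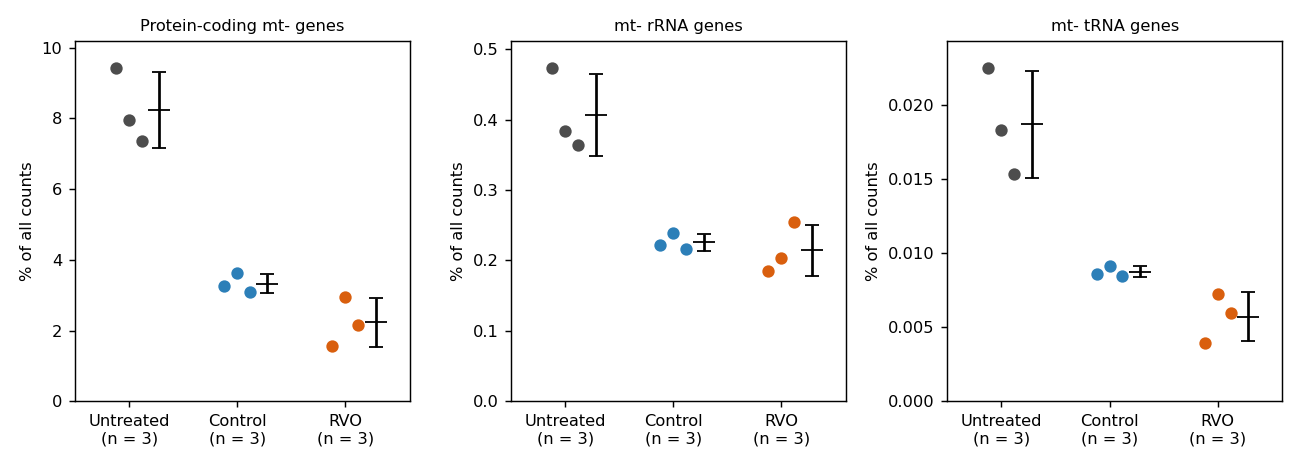
Share of all counts (%) from protein-coding, rRNA and tRNA mt- genes in each sample (points), with the mean and SD of each group (n = 3 pools). Untreated samples lie above all laser-treated samples in each panel, and RVO and control samples overlap in the panel of the rRNA genes.

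Of the 37 genes, 25 had enough counts to be tested in each comparison. Against untreated samples, 17 were lower and 0 higher in RVO samples at an adjusted p under 0.01 (edgeR's quasi-likelihood test with Benjamini-Hochberg adjustment over all genes), while 24.6% of all genes tested were lower and 27.4% higher. In control samples, 15 were lower and 1 was higher, against 25.2% and 27.2% of all genes. The groups did not overlap, with the laser-treated samples lower, for 17 of the 25 genes in RVO (26.3% of all genes) and for 16 in control samples (23.4% of all genes). The 25 genes had median log2 fold changes of -1.71 in RVO and -1.18 in control samples, while the median over all genes was 0.01 in both. A fall below -1 on the log2 scale was seen for 64.0% of the tested mt- genes and 12.14% of all genes in RVO samples, and for 56.0% and 2.65% in control samples. The comparisons of RVO and of control samples share the untreated samples, so they are not independent of each other.

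Complex I takes electrons from NADH and is the first proton pump of the respiratory chain, and 7 of its subunits are mt- genes. mt-Nd1 had 14887, 12664 and 12140 CPM in untreated samples, 5247, 5875 and 5318 CPM in control samples, and 1983, 4539 and 3166 CPM in RVO samples. No sample of a group reached another group. The fall was 4.74-fold in RVO (log2 fold change -2.25 ± 0.28 SE, adjusted p = 0.000223) and 2.73-fold in control samples (-1.45 ± 0.09, adjusted p = 1.55e-07). mt-Nd2 had 10218, 8856 and 8180 CPM in untreated, 3238, 3548 and 2930 CPM in control, and 1405, 2799 and 2041 CPM in RVO samples. Again the groups were separate, and the falls against untreated samples were 5.05-fold and 3.17-fold. mt-Nd4 had 7681, 6591 and 5934 CPM in untreated, 2887, 3257 and 2988 CPM in control, and 1635, 2570 and 2056 CPM in RVO samples. It fell 3.74-fold in RVO and 2.50-fold in control samples, the smallest falls of the complex I genes with over 1000 counts in every sample.

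mt-Nd5, the last protein-coding gene of its strand before mt-Cytb, had 12774, 10963 and 9521 CPM in untreated, 3574, 3845 and 3102 CPM in control, and 1704, 3320 and 2289 CPM in RVO samples. RVO 2 lay among the control samples for this gene. Its fall was 5.27-fold in RVO and 3.57-fold in control samples. mt-Nd6, the protein-coding gene on the other strand, had 6230, 5251 and 4264 CPM in untreated, 1341, 1680 and 1486 CPM in control, and 740, 1294 and 1010 CPM in RVO samples. All groups were separate, and its falls of 6.00-fold in RVO (-2.58 ± 0.23 SE, adjusted p = 5.05e-05) and 3.95-fold in control samples (-1.98 ± 0.13, adjusted p = 1.58e-07) were the largest of the protein-coding genes. mt-Nd3 had only 29 to 51 counts in untreated, 17 to 30 in control and 8 to 33 in RVO samples. It fell 4.06-fold in RVO (adjusted p = 0.00963) and 3.22-fold in control samples (adjusted p = 0.000323), but it was measured on only 6 of 299 windows, and the call in RVO samples was lost when RVO 3 or any 1 of the untreated samples was left out.

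The ends of mt-Nd5 (chrM:13526-13565, plus strand) and mt-Nd6 (chrM:13552-13591, minus strand; both GRCm38) show how closely the strands are packed. The capitals mark the 14 bases of overlap, each gene read in its own direction:

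mt-Nd5 end: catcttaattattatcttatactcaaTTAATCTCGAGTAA
mt-Nd6 end: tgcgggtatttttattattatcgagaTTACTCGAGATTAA

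The library kit marked the strand, but 31 of 35 genes that lie within an exon of a strongly counted gene on the opposite strand had 0 counts in all samples. Genes that are not expressed would be at 0 as well, so this count alone cannot decide whether strand was used. Unconfirmed annotated genes (class TEC) inside introns of strongly counted genes had a median of 5.81 counts per kb on the opposite strand (n = 16). On the same strand it was 3.46 (n = 184). From these values, the strand of a read did not seem to decide its gene in the counting, but the settings are not known. If strand was ignored, counts of mt-Nd6, mt-Te and the other 7 mt- genes on the minus strand may include RNA of the opposite strand. The ratio of mt-Nd6 to mt-Nd5 counts was 0.472 ± 0.021 in untreated, 0.430 ± 0.052 in control and 0.422 ± 0.028 in RVO samples (SD, n = 3 each), and only the RVO and untreated samples did not overlap (exact permutation test, two-sided, p = 0.1).

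mt-Cytb, the mt- subunit of complex III, which passes electrons to cytochrome c, had the highest counts of all mt- genes. It had 22404, 18616 and 18237 CPM in untreated, 9760, 10529 and 9180 CPM in control, and 5209, 9022 and 6691 CPM in RVO samples. Here too the groups were separate. Its falls of 3.28-fold in RVO (-1.71 ± 0.20 SE, adjusted p = 0.000184) and 2.27-fold in control samples (-1.18 ± 0.10, adjusted p = 6.42e-07) were the smallest of the 8 protein-coding genes tested. mt-Co1, the catalytic subunit of complex IV, which hands the electrons to oxygen, had 20011, 16451 and 15203 CPM in untreated, 6492, 7433 and 5941 CPM in control, and 3098, 6097 and 4373 CPM in RVO samples. It fell 4.41-fold in RVO and 2.94-fold in control samples, and RVO 2 lay within the range of the controls. No statement was possible on mt-Co2 and mt-Co3 of complex IV or on mt-Atp6 and mt-Atp8 of ATP synthase.

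**Figure D3:**
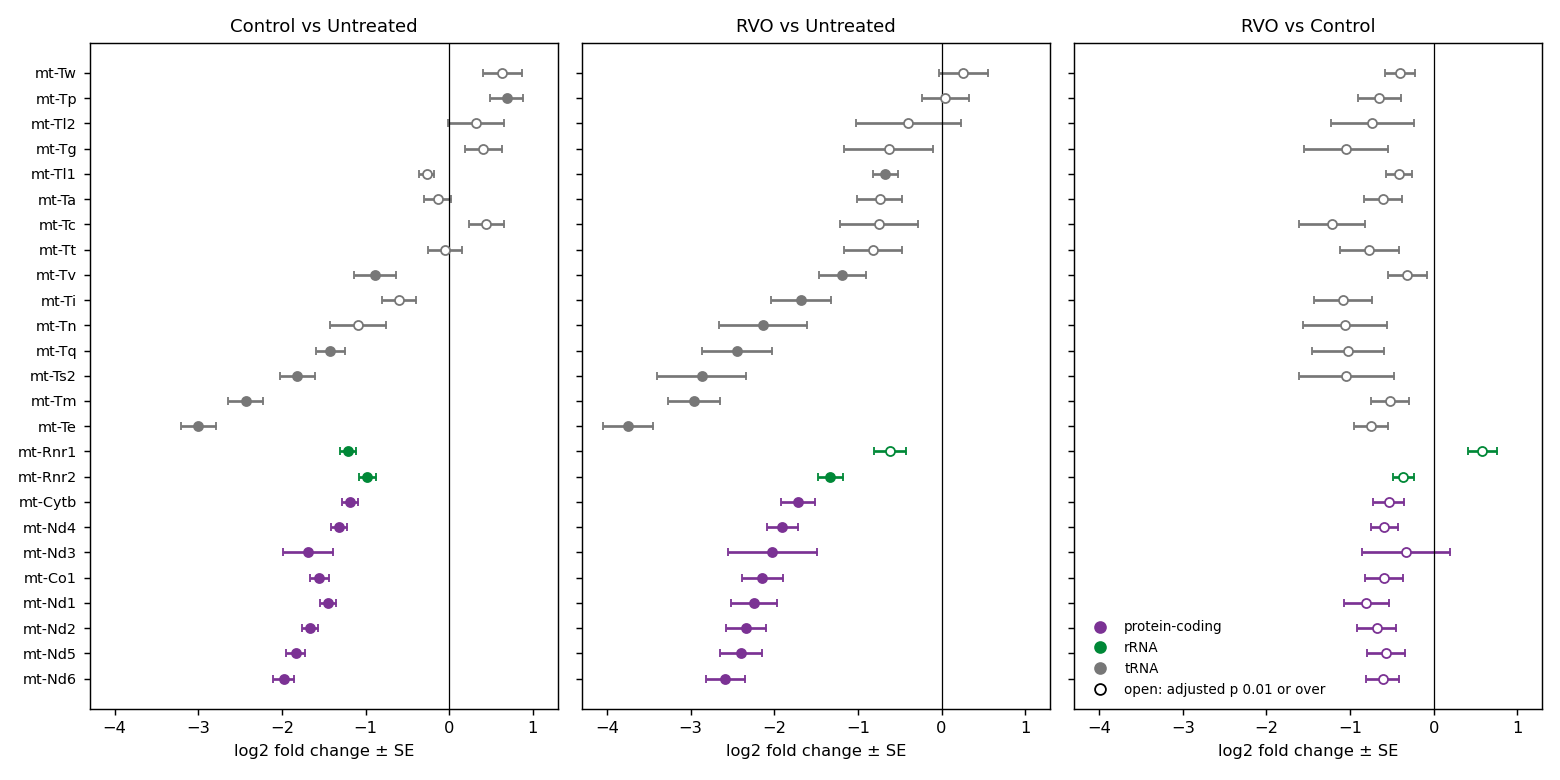
Log2 fold changes with their SE (edgeR) of the 25 mt- genes tested, in 3 comparisons. Filled points have an adjusted p under 0.01. The protein-coding genes lie between -2.58 and -1.71 in RVO and between -1.98 and -1.18 in control against untreated samples, and mt-Rnr1 lies above 0 between RVO and control samples.

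Levels were compared per 1000 windows of unshared sequence for the 9 genes with over 1000 counts in every sample. Among these, mt-Co1 was highest in untreated samples with 23560 CPM, followed by mt-Cytb with 18040, mt-Nd1 with 14570, mt-Nd4 with 13420, mt-Nd6 with 11170, mt-Nd2 with 10010 and mt-Nd5 with 6760. The rRNA genes mt-Rnr2 with 2092 CPM and mt-Rnr1 with 985 CPM were lowest of the 9 on this scale. These are counts after poly(A) selection, whose part in the order was not tested, and those of mt-Nd6 may include RNA of the opposite strand. mt-Co1 was above mt-Cytb in 5 of 9 samples, mt-Nd1 above mt-Nd4 in 4 and mt-Nd6 above mt-Nd2 in 4, so the order of these neighbours was not stable. Every other step of the order held in 9 of 9 samples.

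The make-up of the protein-coding mt- counts also differed. mt-Cytb made up 23.8%, 23.5% and 24.8% of them in untreated, 30.0%, 29.1% and 29.7% in control, and 33.0%, 30.4% and 30.9% in RVO samples. All 3 groups were separate, although RVO and control samples overlapped when mt-Cytb was taken as a share of all mt- counts. mt-Nd5 made up 13.4% ± 0.438 in untreated, 10.6% ± 0.485 in control and 10.9% ± 0.312 in RVO samples, and mt-Nd6 made up 6.34% ± 0.468, 4.52% ± 0.355 and 4.58% ± 0.184 (SD, n = 3 each). For both genes, laser-treated samples lay below untreated samples, and control and RVO samples overlapped. mt-Nd1 made up 15.8% to 16.5% in untreated and 16.1% to 17.2% in control, but 12.6% to 15.3% in RVO samples. Of the 9 abundant genes set against the protein-coding mt- counts, 9 did not overlap between RVO and untreated, 8 between control and untreated and 4 between RVO and control samples. The protein-coding genes are parts of the same total, so a larger share of mt-Cytb goes with smaller shares of others, and these counts are not independent results. No such share exists for all genes. As CPM, 26.3%, 23.4% and 22.8% of all genes tested did not overlap with the first group lower, in the same order of comparisons. The exact permutation test could not give less than p = 0.1 for any of the 9 genes.

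**Figure D4:**
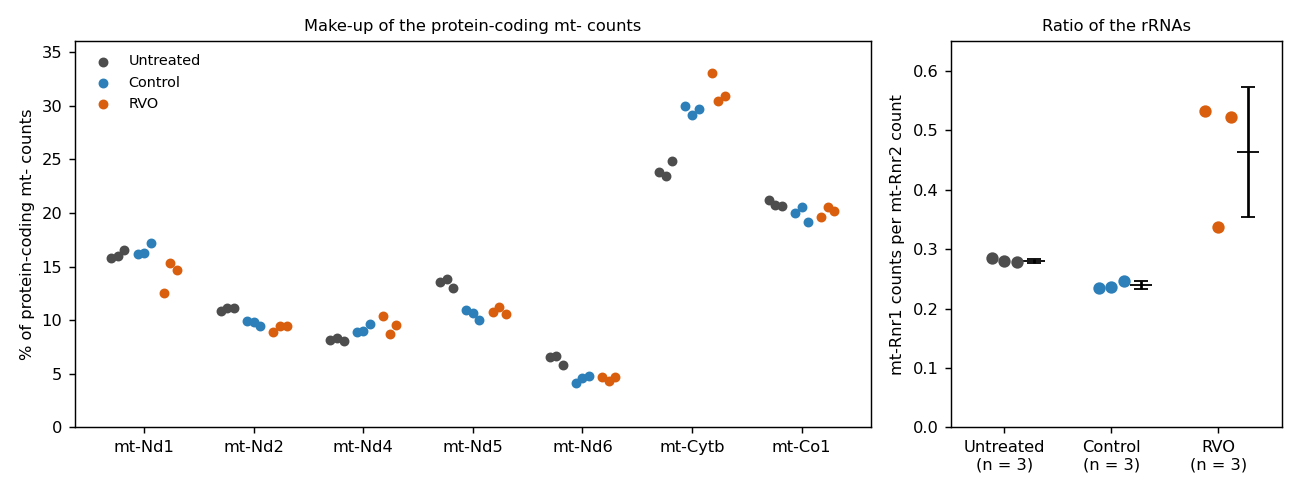
Left, percentage of the protein-coding mt- counts from each of 7 abundant genes, 1 point per sample. Right, mt-Rnr1 counts per mt-Rnr2 count in each sample, with mean and SD (n = 3 pools). mt-Cytb makes up 23.5% to 24.8% in untreated and 30.4% to 33.0% in RVO samples, and RVO 1 and RVO 3 have the highest ratios of the rRNAs.

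The 2 rRNA genes, which form the cores of the small (mt-Rnr1) and large (mt-Rnr2) subunits of the mitochondrial ribosome, differed from the messenger RNAs. mt-Rnr2 had 3682, 2996 and 2842 CPM in untreated, 1803, 1929 and 1730 CPM in control, and 1206, 1519 and 1672 CPM in RVO samples. The groups did not overlap, and it fell 2.51-fold in RVO (-1.33 ± 0.15 SE, adjusted p = 0.000148) and 1.97-fold in control samples (-0.98 ± 0.10, adjusted p = 2.51e-06). mt-Rnr1 had 1048, 839 and 790 CPM in untreated and 422, 457 and 427 CPM in control samples, but 641, 513 and 874 CPM in RVO samples. RVO samples lay above all control samples and RVO 3 lay among the untreated samples. mt-Rnr1 fell 2.32-fold in control samples (-1.21 ± 0.10 SE, adjusted p = 5.43e-07). In RVO against untreated samples its log2 fold change was -0.62 ± 0.19 SE (adjusted p = 0.0191), which did not pass the threshold of 0.01. This outcome held in 9 of 14 alternatives and the fall passed the threshold in the other 5, with values from -0.83 to -0.40 over the 14. DESeq2 and the fits without RVO 2 or RVO 3 were among the 5.

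The ratio of mt-Rnr1 to mt-Rnr2 counts was 0.285, 0.280 and 0.278 in untreated and 0.234, 0.237 and 0.247 in control samples. It was 0.532, 0.338 and 0.523 in RVO samples. The 3 groups were separate, with the RVO samples highest and RVO 2 nearest to the others. The difference of 0.225 between RVO and control means was larger than the SD of either group (0.109 and 0.007; exact permutation test, two-sided, p = 0.1). Both rRNAs together made up 4.69% ± 0.086 of all mt- counts in untreated, 6.35% ± 0.165 in control and 9.12% ± 2.36 in RVO samples (SD, n = 3 each), and RVO 2 with 6.40% lay among the controls.

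The libraries were made from poly(A)-containing RNA, so counts of rRNA, tRNA and other RNAs with short or no tails depend on what this selection let through. Of 17 nuclear RNAs without poly(A) tails, 4 were at 0 in every sample and 5 could be tested in RVO against untreated samples, with 1 higher (Rmrp) and 1 lower (Hist2h4, a histone gene, log2 fold change -0.93). Rn7sk, a small nuclear RNA that holds back transcription elongation, was at 8.76 to 10.7 CPM in untreated, 7.70 to 10.7 in control and 11.3 to 17.0 in RVO samples. Rmrp, the RNA of an endoribonuclease and like Rn7sk chosen here after its values were seen, was at 0 to 0.131, 0.512 to 0.582 and 0.891 to 1.24 CPM in the same order. Summed over the 17, the level was 17.0 to 19.6, 17.8 to 19.4 and 20.7 to 27.1 CPM, again in this order. Without Rn7sk it was 8.27 to 8.97, 8.50 to 10.1 and 9.36 to 10.5 CPM, and RVO and control samples overlapped. Whether differences in poly(A) selection had a part in the mt-Rnr1 values was not tested.

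The tRNA genes had few counts and differed most among themselves. After poly(A) selection, these counts may come from mature tRNAs or from longer RNA that contains them. Which of these was counted was not tested, so the values below are not levels of mature tRNA. mt-Te had 106, 73.7 and 53.9 CPM in untreated, 10.4, 12.0 and 10.5 CPM in control, and 4.90, 8.42 and 6.99 CPM in RVO samples. The groups did not overlap, and the log2 fold changes of -3.75 ± 0.30 SE in RVO (13.4-fold, adjusted p = 3.38e-05) and -3.00 ± 0.21 in control samples (adjusted p = 1.92e-07) were the largest falls of all tested mt- genes. mt-Te lies next to mt-Nd6 on the same strand. Its counts per 1000 counts of mt-Nd6 were 14.6 ± 2.28 in untreated, 7.35 ± 0.384 in control and 6.68 ± 0.213 in RVO samples (SD, n = 3 each), so mt-Te was lower also relative to its neighbour, without overlap between the groups (exact permutation test, two-sided, p = 0.1 for each pair). mt-Tm had 50.1, 38.3 and 24.5 CPM in untreated, 8.16, 8.36 and 7.05 CPM in control, and 4.62, 7.62 and 4.66 CPM in RVO samples. It fell 7.76-fold in RVO and 5.40-fold in control samples.

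In all, 8 of 15 tRNA genes were lower in RVO than in untreated samples, where 24.6% of all genes were lower, and 5 of 15 in control samples, which is near the 25.2% of all genes. Besides mt-Te and mt-Tm, mt-Ts2 (log2 fold change -2.87 in RVO and -1.82 in control samples), mt-Tq (-2.44 and -1.42) and mt-Tv (-1.18 and -0.89) fell in both. mt-Tn (-2.13), mt-Ti (-1.68) and mt-Tl1 (-0.67) fell in RVO samples. Their values in control samples were -1.09, -0.60 and -0.27 with adjusted p between 0.0119 and 0.0186, and between RVO and control samples they were -1.06, -1.09 and -0.42 with adjusted p of 0.133, 0.0452 and 0.0789, so the RVO and control groups were not shown to differ at the threshold of 0.01. Calls of mt-Tv, mt-Tn, mt-Ti and mt-Tl1 in RVO samples were lost when RVO 3 or untreated 2 was left out, among others, and that of mt-Tv in control samples held in only 6 of 14 alternatives. These genes had at most 62 counts in any sample except mt-Tl1 with 283 to 509.

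A different picture was seen for mt-Tp. It had 1.86, 1.70 and 1.77 CPM in untreated, 2.85, 3.44 and 3.37 CPM in control, and 1.41, 2.58 and 2.43 CPM in RVO samples. It rose 1.61-fold in control samples (log2 fold change 0.69 ± 0.20 SE, adjusted p = 0.00798) on 61 to 79 counts in control and 23 to 27 in untreated samples. The call held in only 6 of 14 alternatives. Among others, it was lost in DESeq2 and when any 1 sample other than control 1 was left out. In RVO samples the value of mt-Tp was 0.05 (adjusted p = 0.892), and RVO samples lay on both sides of the untreated samples. mt-Tw had 2.51, 4.52 and 6.43 CPM in untreated, 6.72, 9.42 and 7.86 CPM in control, and 5.31, 7.08 and 6.42 CPM in RVO samples, and did not pass the threshold in either comparison (0.63, adjusted p = 0.0308 in control and 0.26, adjusted p = 0.456 in RVO samples). mt-Tc and mt-Tg did not overlap between control and untreated samples, with control samples higher, but their log2 fold changes of 0.44 and 0.40 did not pass the test (adjusted p = 0.0854 and 0.127). mt-Ta, mt-Tl2 and mt-Tt passed in neither comparison. The other 7 tRNA genes had no more than 15 counts in any sample.

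The difference between RVO and control eyes was smaller and less certain. At an adjusted p under 0.01, 0 of 25 mt- genes differed in edgeR, while 0.634% of all genes were lower and 2.7% higher in RVO samples. With an unadjusted p under 0.05 there were 16, against 47.1% of all genes. DESeq2 called 7 at the same adjusted threshold, 6 lower and 1 higher, against 12.8% and 11.0% of all genes. At an adjusted p under 0.05, 5 mt- genes were lower and 1 was higher in RVO samples, against 17.1% and 17.5% of all genes. The 5 lower genes were mt-Nd4 (log2 fold change -0.59 ± 0.16 SE, adjusted p = 0.0278), mt-Nd6 (-0.61 ± 0.20, adjusted p = 0.0465), mt-Te (-0.75 ± 0.21, adjusted p = 0.0289), mt-Ti (-1.09 ± 0.35, adjusted p = 0.0452) and mt-Tc (-1.22 ± 0.39, adjusted p = 0.0461). The higher gene was mt-Rnr1 (0.58 ± 0.17 SE, adjusted p = 0.0334). The groups did not overlap, with RVO lower, for 14 of 25 genes and for 22.8% of all genes. Fitted values were negative for 24 of the 25, with a median of -0.61.

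RVO 2 decided the count of calls, and not for mt- genes alone. Without RVO 2, 16 mt- genes passed an adjusted p of 0.01, 15 lower and 1 higher, and 19.3% of all genes were then lower and 17.1% higher. Leaving out any other sample gave 0 mt- genes, but those fits called few genes of any kind. They called 29 of 17149 genes without RVO 1, 1 of 17247 without control 1 and 0 without RVO 3, control 2 or control 3. RVO 2 had the highest share of mt- counts of the RVO samples, but it also stood apart in other genes, such as the lens gene Cryaa (2742 CPM, with 113 and 216 in the other RVO samples), the neuronal Nefl (249 CPM, with 101 and 137) and the neutrophil gene S100a9 (14.6 CPM, with 41.6 and 42.8), which were named after their values were seen. Of the protein-coding genes, mt-Nd5, mt-Co1 and mt-Nd3 overlapped between RVO and control samples, and mt-Nd1, mt-Nd2, mt-Nd4, mt-Nd6 and mt-Cytb did not.

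Most nuclear genes for the same complexes did not fall with the mt- genes. Of 73 nuclear genes of complexes I, III and IV and ATP synthase that were tested, 30 passed the test as higher in RVO against untreated samples and 8 as lower, and their median log2 fold change was 0.21. In control samples, 38 of 73 were higher and 10 lower, with a median of 0.27. These shares lie above the share of all genes that were higher (27.4% and 27.2%). The lowest value was -0.63 in RVO and -0.51 in control samples, both of Atpif1, the inhibitor of ATP synthase, and the highest tested protein-coding mt- gene, mt-Cytb, was at -1.71 and -1.18. With scaling by library size alone, which shifts the median of all genes to 0.22 and 0.19, the numbers were 41 higher and 2 lower in RVO and 51 higher and 4 lower in control samples.

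By complex, 14 of 36 nuclear genes of complex I were higher and 5 lower in RVO against untreated samples, 7 and 1 of 9 for complex III, 2 and 0 of 11 for complex IV, and 7 and 2 of 17 for ATP synthase. Over all genes, 27.4% were higher and 24.6% lower, and complex IV lay below both shares. The count for complex IV fell to 1 when RVO 3 or any 1 of the untreated samples was left out. Ndufa3, an accessory subunit of complex I, had 30.1, 28.2 and 28.3 CPM in untreated, 59.6, 73.0 and 69.1 CPM in control and 85.0, 76.9 and 92.9 CPM in RVO samples. The groups were separate, and it rose by a log2 fold change of 1.34 ± 0.09 SE in RVO samples (adjusted p = 1.62e-05), which was the largest rise of these genes. Atp5e, the epsilon subunit of ATP synthase (1.28), and Uqcr10, a small subunit of complex III (1.24), rose as well. Between RVO and control samples, 0 of 74 nuclear genes passed the test in edgeR, and 1, which was lower, passed it in DESeq2. Without RVO 2, 1 was higher and 4 were lower in edgeR, against 17.1% and 19.3% of all genes. At an unadjusted p under 0.05, 2 were higher and 4 lower, while 47.1% of all genes passed in either direction.

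**Figure D5:**
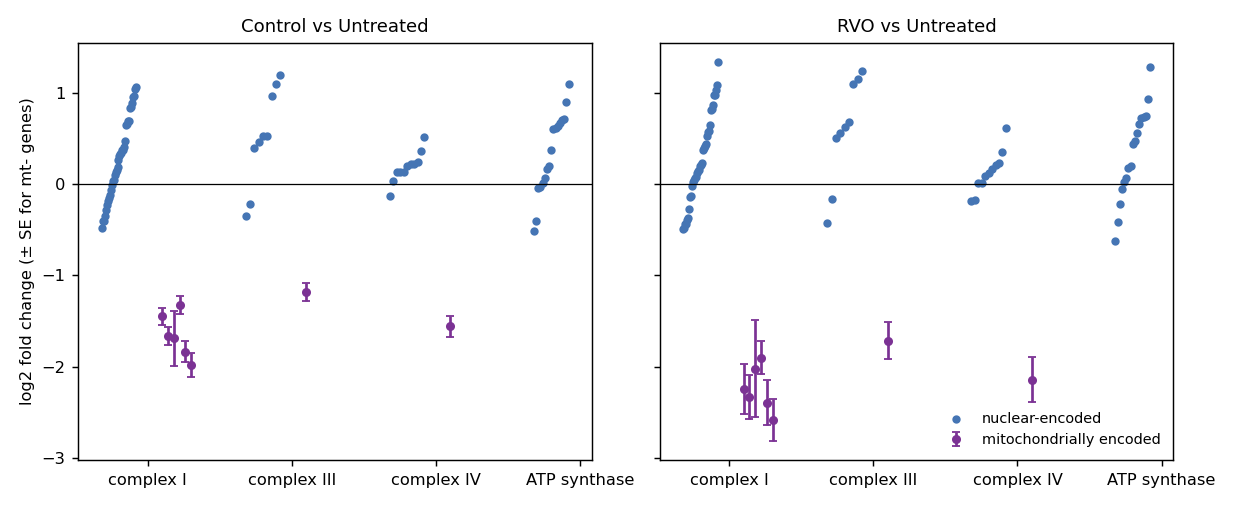
Log2 fold changes of nuclear-encoded (blue) and mitochondrially encoded (purple, with SE) genes of the respiratory complexes and ATP synthase, for control and RVO against untreated samples. The mt- genes lie below the lowest nuclear gene of complexes I, III and IV, and no mt- gene of ATP synthase could be tested.

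Nuclear genes that act on the mitochondrial genome are set here against all genes, of which 27.4% were higher and 24.6% lower in RVO and 27.2% and 25.2% in control samples. Against untreated samples, 1 of 10 genes for its transcription was higher in RVO samples and 3 were lower, while 1 was higher and 5 lower in control samples. Polrmt, the mitochondrial RNA polymerase, rose by 0.40 ± 0.09 SE on the log2 scale in RVO samples (adjusted p = 0.00541) and by 0.33 in control samples. Mterf1a, which binds at the end of the rRNA genes, fell by 1.06 in RVO and by 0.98 in control samples, from 4.52, 4.66 and 4.92 CPM in untreated to 1.75 to 3.36 CPM in laser-treated samples. Tfam, which packages mitochondrial DNA and starts its transcription, had a log2 fold change of 0.17 (adjusted p = 0.221) in RVO and of -0.25 (adjusted p = 0.0129) in control samples. Tfb2m, the partner of Polrmt at the promoter, fell by 0.67 in control samples and had -0.24 in RVO samples (adjusted p = 0.308). The 4 calls in RVO samples became 2 when RVO 3 or any 1 of the untreated samples was left out, and the 6 calls in control samples became 3 without untreated 2.

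Among 13 regulators of mitochondrial biogenesis, 3 were higher and 5 lower in RVO, and 4 were higher and 6 lower in control samples, with the higher calls near the shares of all genes. Esrrg, a nuclear receptor that drives genes of oxidative metabolism, had 162, 190 and 177 CPM in untreated, 113, 104 and 99.1 CPM in control, and 45.0, 78.8 and 56.0 CPM in RVO samples. The groups were separate, and the falls were 1.76 ± 0.19 SE (adjusted p = 0.000124) in RVO and 0.92 in control samples on the log2 scale. The coactivators Ppargc1a and Ppargc1b fell by 1.15 and 1.26 in RVO and by 0.89 and 0.72 in control samples. Their relative Pprc1 rose by 1.48 and 0.62, and the nuclear receptor Esrra by 1.24 and 1.32. Between RVO and control samples, Nfe2l2, the regulator of the antioxidant response, rose by 0.62 ± 0.10 SE (adjusted p = 0.00977), but this call was lost when any 1 sample other than RVO 2 was left out. Those fits called at most 29 of all genes higher and 0 lower.

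Of 34 genes for processing and stability of mitochondrial RNA, 11 were higher and 5 lower in RVO (8 to 22 calls in all when 1 sample was left out, fewest without untreated 2), and 9 were higher and 11 lower in control samples, where the higher calls again lie near 27.4% and 27.2% of all genes. Nsun4, which methylates the small rRNA, rose by 1.76 and 1.24 on the log2 scale, and Pus1, which modifies tRNAs, by 1.52 and 0.82. Lrpprc, which stabilizes the messenger RNAs and supports their polyadenylation, fell by 0.55 in both comparisons. Of 77 proteins of the mitochondrial ribosome, 36 were higher and 4 lower in RVO (26 calls in all without RVO 3 or untreated 2), and 25 higher and 18 lower of 76 in control samples, where scaling by library size alone gave 42 higher and 5 lower. Mrps25, of the small subunit, had 19.9, 20.2 and 20.5 CPM in untreated, 41.2, 60.6 and 50.3 CPM in control, and 126, 94.9 and 119 CPM in RVO samples. The groups did not overlap and it rose also between RVO and control samples (log2 fold change 1.11 ± 0.15 SE, adjusted p = 0.0086), a call that was lost without any 1 sample other than RVO 2. In those fits, at most 29 of all genes were called higher and 0 lower.

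Other lists stand beside the same shares of all genes, 27.4% higher and 24.6% lower in RVO and 27.2% and 25.2% in control samples. They have 12 to 16 tested genes, and most of their counts lie near or below those shares. Replication of mitochondrial DNA had 6 higher and 4 lower of 16 genes in RVO (6 in all without untreated 2) and 4 and 3 in control samples. Translation factors had 2 and 1 of 12 in RVO and 2 and 4 in control samples. Removal of mitochondria by autophagy had 5 and 2 of 16, and 4 and 5. Fusion, fission and transport had 3 and 5 of 14, and 4 and 5. For 16 nuclear markers of mitochondrial mass, such as outer membrane and import proteins, 8 were higher and 3 lower in RVO (5 in all without RVO 3 or untreated 2) and 4 and 2 in control samples.

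Markers of retinal cells changed in the same samples. All 13 rod markers were detected. Their summed level was 89720 to 93610 CPM in untreated, 69200 to 82590 CPM in control and 59180 to 61950 CPM in RVO samples, and 11 of 13 were lower in RVO (24.6% of all genes) and 8 of 13 in control samples (25.2% of all genes) than in untreated samples. Of 10 cone markers, 7 were lower in each, while 1 was higher in RVO and 2 were higher in control samples. Their summed level was 1781 to 1893 CPM in untreated, 2176 to 2254 in control and 1955 to 2125 in RVO samples. A large part of this sum was Gnb3, which was higher in both, with means of 306, 993 and 1302 CPM in this order. The number of mt- counts per rod marker count was 0.825 to 1.11 in untreated, 0.402 to 0.559 in control and 0.288 to 0.512 in RVO samples, so the mt- counts were lower also relative to rod markers. Summed retinal ganglion cell markers were 1052 to 1075 CPM in untreated, 981 to 1021 in control and 269 to 639 in RVO samples. Mueller cell markers were 5110 to 5221, 4710 to 5242 and 2996 to 4288 CPM, and erythroid markers 13.01 to 13.97, 29.2 to 32.2 and 52.2 to 213 CPM, in the same order. Microglia markers were 102 to 155, 71.1 to 85.6 and 45.0 to 82.2 CPM, and monocyte and macrophage markers 15.4 to 20.1, 55.5 to 78.1 and 129 to 161 CPM. Neutrophil markers were 0.495 to 1.05, 8.54 to 26.0 and 49.1 to 113 CPM, and lens markers 6.03 to 32.3, 292 to 3993 and 264 to 8470 CPM. The part of these cell types in the fall of the mt- genes was not tested.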

How the data were processed

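RNA had been isolated from pooled retinas, poly(A)-containing RNA was selected, and libraries were sequenced as single reads of 50 bases. For mapping, the authors used STAR 2.5.2b with Gencode vM11 as annotation on GRCm38, and reads were counted per gene with featureCounts (Subread 1.5.1). The deposited values are raw counts per gene for 9 samples, without normalization. The settings for strand and for reads with several matches are not given in the sources used here, so members with close copies or antisense neighbours are uncertain. The table has 92 spike-in rows, with 0 counts in all. The number of columns not used was 0. Samples were grouped by their titles.

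The quasi-likelihood test of edgeR 4.0.16 (R 4.3.3) was fitted separately to each pair of groups, over all genes that passed filterByExpr and with TMM scaling. A gene was called at a Benjamini-Hochberg adjusted p under 0.01. DESeq2 1.42.0 was an alternative. CPM values were scaled to the total of a sample, without TMM. Shares were compared by exact permutation tests. The scripts were tested on simulated counts. Windows of 50 bases were compared between all transcripts of GENCODE vM21 on GRCm38, which also gave coordinates and sequences. Counting error was small for genes with over 1000 counts and limits the tRNA genes.

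All protein-coding and rRNA members and the tRNA members that passed the filter in every comparison were named. From each list of nuclear genes, up to 2 rises and 2 falls were named, the largest among called genes whose groups did not overlap, and genes of transcription and biogenesis whether called or not. The members and lists were chosen with earlier results of these data known. The alternatives were other scalings, filters and thresholds, 1 common fit of the 9 samples, a block for the replicate number, and fits without each sample. With library size alone as scaling, genes called higher and lower against untreated samples changed from 4492 and 4037 to 5967 and 2741 in RVO and from 4371 and 4045 to 5902 and 2484 in control samples.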

Additional observations from a re-analysis of the deposited data

How the results depend on the processing

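The falls of mt-Nd1, mt-Nd2, mt-Nd4, mt-Nd5, mt-Nd6, mt-Cytb, mt-Co1 and mt-Rnr2 against untreated samples kept their direction and call in RVO and in control samples under all 14 alternatives run for each, which were other scalings, filters, tests and samples left out. The number of mt- genes called was 12 to 20 in RVO and 14 to 17 in control against untreated samples when 1 sample was left out. The number over all genes moved in these fits too. In RVO samples, 3298 to 5436 were higher and 2710 to 5055 lower of 16234 to 17184 tested. In control samples, 3491 to 4093 were higher and 3424 to 4022 lower of 16050 to 16665 tested. When libraries were scaled to their protein-coding mt- counts, which by construction removes the common fall, 11 mt- genes were called in RVO against untreated samples, 10 of them higher, and 1 in RVO against control samples. This scaling made 14766 of all 16380 genes tested higher and 28 lower in the first comparison, and 4235 of 16874 higher and 139 lower in the second. The 0 calls between RVO and control samples became 2 without a filter, 7 in DESeq2 and 6 at an adjusted p under 0.05, and 0 to 16 when 1 sample was left out, with 16 without RVO 2. Without a filter, 1569 of all 29742 genes were higher and 1740 lower. Fits without a sample other than RVO 2 called at most 29 of all genes. The cause was not tested.

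Signs turned only for values that passed no test. In RVO against untreated samples, leaving out 1 sample gave -0.013 to 0.60 for mt-Tw (below 0 without untreated 1), -1.13 to 0.20 for mt-Tl2 (0.08 without RVO 1, 0.20 without untreated 3) and -0.13 to 0.31 for mt-Tp (-0.13 without RVO 2, -0.03 without RVO 3). In control against untreated samples it gave -0.24 to 0.039 for mt-Ta (above 0 without untreated 1) and -0.26 to 0.074 for mt-Tt (above 0 without control 2 or, with 0.01, untreated 1), and library size alone gave 0.037 and 0.12. Between RVO and control samples it gave -1.001 to 0.14 for mt-Nd3 and -0.0317 to 0.00329 percentage points for the share of rRNA counts, both above 0 without RVO 1. The cause was not tested.

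The eyes of the RVO and control groups came from the same mice, but the labels do not say whether equal replicate numbers hold the same mice. Correlations of same-numbered samples were -0.13, -0.15 and 0.07, which cannot decide this with 3 samples in each group. The main fits treated the pools as independent. With the replicate block, 17, 16 and 0 mt- genes were called in RVO against untreated, control against untreated and RVO against control samples. Of all genes, 4288 were higher and 3928 lower of 16380 in the first comparison. In the second, 4368 were higher and 4041 lower of 16066, and in the third, 0 of 16874 genes were called. Leaving out samples for the make-up of mt- counts and the alternatives for nuclear gene lists were chosen after seeing the data. The depth limits statements on genes with under 100 counts.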
